A study of Mus musculus with 8 samples.

Results

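The genes described here are 10 parts of the retinoblastoma protein (RB) pathway: the INK4 inhibitors Cdkn2a, Cdkn2b, Cdkn2c and Cdkn2d, the CIP/KIP inhibitor Cdkn1b, the kinases Cdk4 and Cdk6, the cyclins Ccnd1 and Ccnd2, and Rb1. They are 10 of the 18768 genes in the deposited table and were followed through RNA sequencing of 4 mouse tumor cell lines. The set was chosen by the levels of Cdkn2a and Cdkn2b in the line MC010, so those values are given as a description and without a test in every comparison that involves MC010. The question was how the rest of the pathway differed in that line. All 10 genes passed the filter on low counts, as did 15153 genes in all.

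The lines were grown from sarcomas that methylcholanthrene (MCA), a carcinogen, had raised under the skin of mice. MC010 and MC011 came from mice with the Irf8 gene knocked out (IRF8 KO), a transcription factor best known from blood cells, and MC654 and MC659 came from wild-type (WT) C57BL/6 mice. All 4 lines had been through at least 10 passages in culture, and all came from the same carcinogen. Each line is a single tumor, sequenced as 2 libraries. In comparisons between lines, p-values therefore measure the spread between libraries of the same line and not the spread between tumors. In the comparison between labels, the spread also holds differences between lines of a label, but the libraries of a line are counted as separate samples.

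The libraries held between 74063616 and 116206078 counts. Irf8 RNA did not run in the direction of the labels, with 442 and 347 counts in MC010, 32 and 10 in MC011, and between 0 and 2 in the WT libraries. The study genotyped all 4 lines by PCR on genomic DNA and reported MC010 and MC011 as IRF8 KO. Counts per gene do not give the genotype, so they do not decide on the labels. MC010 and MC011 are called lines labelled IRF8 KO here. Of 7 mesenchymal marker genes all 7 were measured, and their summed level was 8529 to 9287 CPM (counts after scaling every library to equal depth) in MC010 and 6622 to 8049 CPM in the other lines. Vim carried that sum (7384 and 6723 CPM in MC010), while 3 of the 7, Col1a1 (log2 fold change -2.14), Pdgfrb (-0.72) and Thy1 (-0.70), were lower in MC010 than the mean of the other lines (adjusted p under 0.05 and a log2 fold change beyond 0.59) and 0 were higher. Of all genes, 15.3% were lower and 18.1% higher by the same thresholds. Thy1 was high in MC011 alone (72.3 and 68.1 CPM), and MC010 (12.8 and 11.9 CPM) overlapped with the WT lines. Pdgfrb was also highest in MC011 (278 and 274 CPM), and MC010 (99.7 and 95.2 CPM) lay closer to the WT lines (113 to 135 CPM). The summed level of 4 epithelial marker genes was 531 to 565 CPM in MC010 and 33.3 to 129 CPM elsewhere. It came from Krt8 (293 and 274 CPM in MC010) and Krt18 (271 and 257 CPM), both higher by the same thresholds. Cdh1 was lower by them, with 2 and 0 counts in MC010 and 11 to 38 elsewhere. Epcam had 0.367 and 0.313 CPM in MC010, inside the range of the other lines (0.118 to 1.19 CPM). Of 7 hematopoietic markers 4 were in the table, with sums of 6.57 to 7.38 CPM in MC010 and 5.72 to 11.4 CPM elsewhere, and Ptprc was at 0 in at least 1 library. The sum of 3 endothelial markers was at most 0.789 CPM, with Kdr at 0 in at least 1 library. The part of these markers in the results for MC010 was not tested.

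In mammalian cells, D-type cyclins bind CDK4 and CDK6 as growth signals arrive, and the complexes phosphorylate RB, which then releases E2F transcription factors to switch on genes for DNA synthesis. INK4 proteins bind CDK4 and CDK6 directly and block them, whereas p27, the product of Cdkn1b, acts on cyclin and kinase together. Cdkn2a encodes p16INK4a and, from a start of its own and in another reading frame, ARF, which protects p53 from MDM2. The locus that holds Cdkn2a and Cdkn2b is among those most often lost or silenced in tumors.

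Cdkn2a (chr4:89274471-89294653) and Cdkn2b (chr4:89306289-89311032) lie side by side on the minus strand, and Cdkn2c (chr4:109660876-109667189) lies on the same chromosome. Coordinates are those of mm10. The 300 bases around the starts of these 3 genes, from 250 before the start to 50 after it, are shown because Cdkn2a and Cdkn2b chose the set and Cdkn2c is the INK4 gene that was called in MC010. For Cdkn2c, which has 2 starts in the table, only the first is shown. They were taken from RefSeq on GRCm38.p6, read along the minus strand from 5′ to 3′. The first Cdkn2a start belongs to ARF (chr4:89294570-89294869) and the other to p16INK4a (chr4:89282143-89282442). The Cdkn2b window is chr4:89310983-89311282 and the Cdkn2c window chr4:109666707-109667006. Capitals mark matches to the E2F-type motif TTTNNCGC, searched on both strands (reverse complement GCGNNAAA).
Cdkn2a, ARF start: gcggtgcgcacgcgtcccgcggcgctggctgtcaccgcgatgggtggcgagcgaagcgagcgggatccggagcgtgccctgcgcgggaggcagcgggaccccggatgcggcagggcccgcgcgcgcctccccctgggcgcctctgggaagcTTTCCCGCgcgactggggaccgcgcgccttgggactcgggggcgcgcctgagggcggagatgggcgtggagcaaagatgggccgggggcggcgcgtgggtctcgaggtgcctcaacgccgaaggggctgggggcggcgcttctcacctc
Cdkn2a, p16INK4a start: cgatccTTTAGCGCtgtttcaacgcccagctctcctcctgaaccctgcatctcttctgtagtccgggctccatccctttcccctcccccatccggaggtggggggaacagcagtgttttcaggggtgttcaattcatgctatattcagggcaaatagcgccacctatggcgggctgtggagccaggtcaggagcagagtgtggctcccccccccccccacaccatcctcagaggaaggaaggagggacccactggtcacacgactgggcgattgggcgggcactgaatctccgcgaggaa
Cdkn2b: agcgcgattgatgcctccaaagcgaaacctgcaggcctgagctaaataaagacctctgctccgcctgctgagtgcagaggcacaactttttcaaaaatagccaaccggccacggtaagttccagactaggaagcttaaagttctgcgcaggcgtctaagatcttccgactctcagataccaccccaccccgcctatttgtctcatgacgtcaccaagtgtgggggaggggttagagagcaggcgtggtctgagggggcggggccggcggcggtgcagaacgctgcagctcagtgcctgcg
Cdkn2c: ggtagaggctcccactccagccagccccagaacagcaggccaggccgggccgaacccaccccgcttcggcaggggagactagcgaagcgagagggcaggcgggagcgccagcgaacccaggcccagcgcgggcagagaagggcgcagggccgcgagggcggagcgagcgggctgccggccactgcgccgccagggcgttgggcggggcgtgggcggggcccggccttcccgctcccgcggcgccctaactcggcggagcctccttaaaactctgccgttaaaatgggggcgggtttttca

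Counted from the start, the motif began at -99 for ARF and at -244 for p16INK4a. Windows were found for 7 of the 10 genes, and 3 of their 9 windows held a match, the Cdkn2a windows and that of Cdk6 (at -198). Of all 32851 promoter windows, 5.17% held one. A match describes letters in a window and not a bound site. Because the table counts reads per gene, RNA from the ARF start and RNA from the p16INK4a start could not be told apart.

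Among the INK4 inhibitors, Cdkn2a and Cdkn2b are the genes whose levels in MC010 chose the set. Cdkn2a had 6.59 and 4.99 CPM in MC010, 344 and 286 in MC011, 377 and 331 in MC654, and 324 and 327 in MC659. Its RNA was not fully absent from MC010, where 754 and 367 counts remained, or 1.75% of the mean of the other lines. Cdkn2b, which encodes p15INK4b, had 1.08 and 0.952 CPM in MC010 against 58.6 to 69.3 CPM in the 6 other libraries, and its 123 and 70 counts amounted to 1.6% of their mean. In bulk RNA, fewer cells with a transcript and less of it per cell cannot be told apart. MC011, the other line labelled IRF8 KO, had 63.7 and 62 CPM of Cdkn2b, inside the WT range. Of its Cdkn2a libraries 1 lay inside the WT range and the other, at 286 CPM, was the lowest of the 6.

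**Figure D1:**
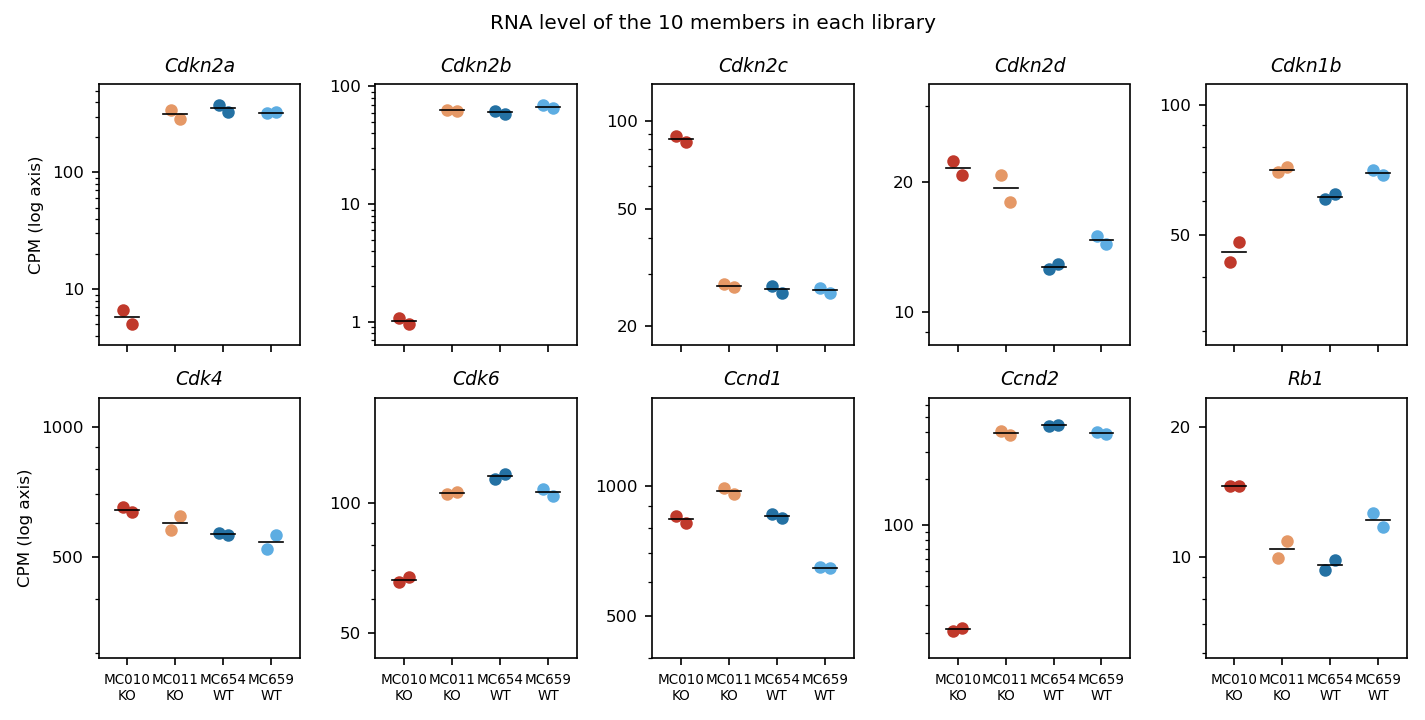
RNA level of the 10 genes in each of the 8 libraries, in CPM on a log axis with its own range in each panel. Points are libraries and black bars are the means of the 2 libraries of a line. MC010 lies below every other library for Cdkn2a, Cdkn2b, Cdkn1b, Cdk6 and Ccnd2, above them for Cdkn2c, Cdkn2d, Cdk4 and Rb1, and among them for Ccnd1.

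Cdkn2c, the gene of p18INK4c, moved in the opposite direction. It had 88.4 and 84.8 CPM in MC010, 27.8 and 27.1 in MC011, 27.5 and 25.9 in MC654, and 27 and 26 in MC659. The 3 other lines were nearly level, and both MC010 libraries lay above all of them. Against the mean of the other 3 lines its log2 fold change was 1.69 (standard error, SE, 0.04), a 3.22-fold higher level (adjusted p = 2.07e-14). Adjusted p-values here come from the quasi-likelihood test of edgeR with the Benjamini-Hochberg correction over all genes tested, unless another tool is named. The log2 difference was 1.66 from MC011, 1.70 from MC654 and 1.71 from MC659.

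Cdkn2d, the gene of p19INK4d (chr9:21288410-21291407), had 22.4 and 20.8 CPM in MC010, 20.8 and 18 in MC011, 12.6 and 12.9 in MC654, and 15 and 14.4 in MC659. Here the libraries labelled IRF8 KO lay together above those labelled WT, and the ranges of MC010 and MC011 nearly touched. The log2 fold change of MC010 was 0.49 (SE 0.06, adjusted p = 6.01e-06), short of the threshold of 0.59 that, with an adjusted p under 0.05, was needed for a call. It was 0.76 against MC654 alone, past both thresholds, and 0.16 against MC011 (adjusted p = 0.106). With MC011 left out, the log2 fold change of MC010 was 0.65 and Cdkn2d was called.

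Levels of different genes were compared per length, as CPM per kb of exon. The 4 INK4 genes together had 49.8 to 53.5 CPM per kb in MC010 and 310 to 385 in the other lines, so that the sum in MC010 was below that in any other library. The make-up differed as well. Cdkn2a took 78.7 to 83.7% of the INK4 sum in the other lines and 8.56 to 10.5% in MC010. Cdkn2c took 2.66 to 3.25% of it in the other lines and 61.5 to 63.5% in MC010, and Cdkn2d 2.08 to 3.69% and 26.6%. These shares include Cdkn2a and Cdkn2b, which chose the set, and carry no test. Reads of Cdkn2a may come from the ARF start as well as from that of p16INK4a. An unknown part of the INK4 sum may therefore not be RNA of an INK4 inhibitor. In absolute terms the gain of Cdkn2c, from at most 10.3 to at least 31.6 CPM per kb, was small beside the level of Cdkn2a in the other lines, 244 to 322 CPM per kb.

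**Figure D2:**
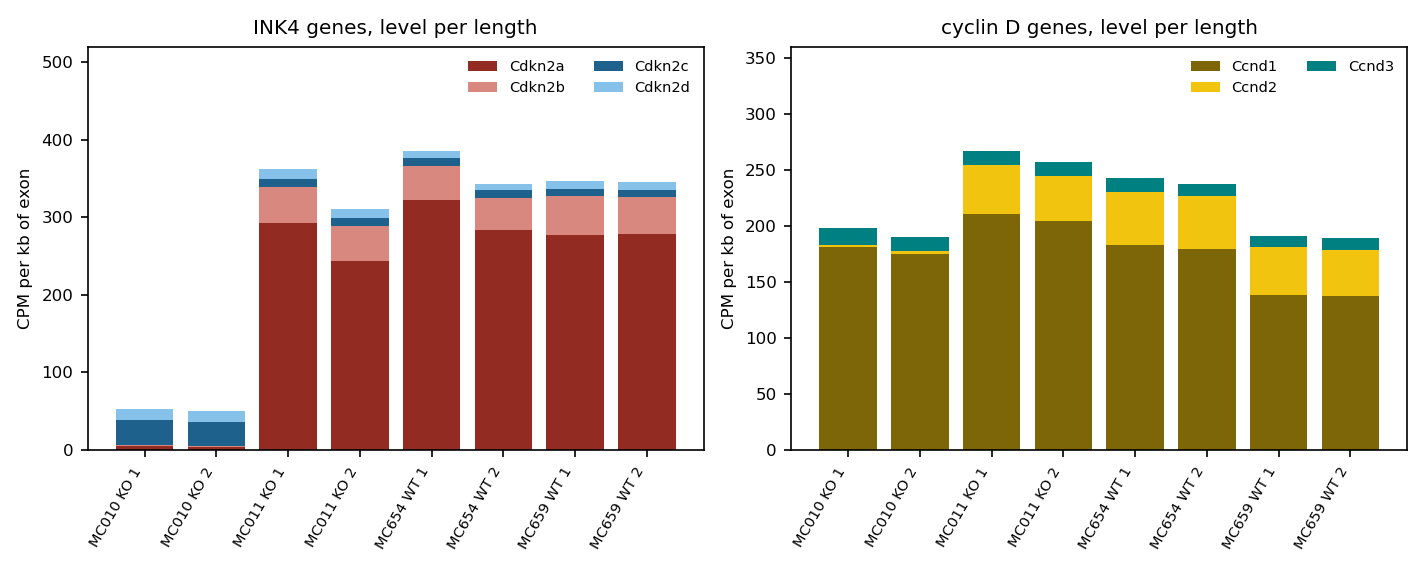
Level per length, in CPM per kb of exon, of the INK4 genes (left) and the D-type cyclin genes (right) in each library, stacked by gene from 0. The INK4 stack reaches at most 53.5 in MC010, where Cdkn2c is the largest part, and at least 310 elsewhere. The cyclin D stack of MC010 (190 to 199) lies within the range of the other libraries (189 to 266) but has almost no Ccnd2.

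Cdkn1b (chr6:134920401-134925513) had 43.4 and 48.2 CPM in MC010, 69.9 and 71.8 in MC011, 60.6 and 62.4 in MC654, and 70.7 and 69 in MC659. MC010 was the lowest line and its libraries did not overlap with any other. The log2 fold change was -0.56 (SE 0.05, adjusted p = 5.35e-08), short of the fold threshold. It was -0.62 without the second library of MC010 and -0.62 without MC654, past both thresholds. Against MC011 it was -0.63 (adjusted p = 1.3e-07), a call that was lost without the first MC010 library (-0.55). Cdkn1b thus lay close to the threshold.

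Of the kinases, Cdk4 (chr10:127063534-127067920) was by far the more abundant per length, at 196 to 201 CPM per kb in MC010 and 161 to 191 elsewhere, against 4.69 to 4.83 and 7.43 to 8.38 for Cdk6. Cdk4 had 652 and 636 CPM in MC010, 578 and 621 in MC011, 568 and 562 in MC654, and 523 and 563 in MC659. Both MC010 libraries were the highest, by a small margin. The log2 fold change was 0.18 (SE 0.04, adjusted p = 0.000719), or 1.13-fold. Cdk4 overlaps Tspan31 on the other strand, which had 76.2 to 93.3 CPM over all libraries.

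Cdk6 (chr5:3341485-3531008) had 65.6 and 67.5 CPM in MC010, 105 and 106 in MC011, 114 and 117 in MC654, and 108 and 104 in MC659. It was clearly lowest in MC010, and the other lines lay close together. The log2 fold change was -0.71 (SE 0.04, adjusted p = 2.48e-10), a 1.64-fold lower level. The difference was -0.67 from MC011, -0.80 from MC654 and -0.67 from MC659, each past both thresholds.

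The D-type cyclins, which activate both kinases, went separate ways. Ccnd2 (chr6:127125162-127152193) had 20.4 and 21.5 CPM in MC010, 409 and 385 in MC011, 442 and 447 in MC654, and 404 and 393 in MC659. Its log2 fold change was -4.30 (SE 0.05, adjusted p = 3.05e-18), a 19.7-fold lower level, and the difference was -4.24 from MC011, -4.41 from MC654 and -4.25 from MC659. By size it ranked 350 of the 15153 genes tested. Cdkn2c ranked 1786, and the remaining members other than Cdkn2a and Cdkn2b ranked between 4777 and 14179. An antisense gene over Ccnd2, 9330179D12Rik, had at most 0.443 CPM in any library.

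Ccnd1 (chr7:144929931-144939925), the main D-type cyclin in these lines, had 854 and 823 CPM in MC010, 991 and 960 in MC011, 861 and 844 in MC654, and 650 and 645 in MC659. MC010 lay inside the range of the other lines, with MC011 highest and MC659 lowest. The log2 fold change was 0.04 (SE 0.03, adjusted p = 0.259), and it became -0.13 (adjusted p = 0.01) when MC659 was left out. Against MC011 it was -0.22, against MC654 -0.02 and against MC659 0.37. The third D-type cyclin, Ccnd3, had 132 and 116 CPM in MC010 and 89.7 to 109 CPM elsewhere (log2 fold change 0.32, SE 0.05, adjusted p = 6.75e-05), short of the fold threshold.

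Per length, Ccnd1 made up 91.3 to 91.9% of the cyclin D sum in MC010 and 72.2 to 79.5% elsewhere. Ccnd2 made up 1.09 to 1.2% in MC010 and 15.9 to 22.5% elsewhere. The sum of the 3 cyclins was 190 to 199 CPM per kb in MC010, inside the range of the other lines (189 to 266). The sum of Cdk4 and Cdk6 was 201 to 206 CPM per kb in MC010 and 169 to 199 elsewhere. Set against the INK4 sum, CDK4/6 RNA per length stood at 3.85 and 4.04 in MC010 and at 0.475 to 0.642 in the other lines, and cyclin D RNA at 3.72 and 3.82 against 0.548 to 0.83. These ratios rest mainly on Cdkn2a and Cdkn2b, are ratios of RNA and not of protein, and carry no test. The INK4 sum in them also holds any ARF RNA counted under Cdkn2a.

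Rb1 (chr14:73183673-73325822), the gene of the retinoblastoma protein itself, had 14.6 and 14.6 CPM in MC010, 9.95 and 10.9 in MC011, 9.31 and 9.85 in MC654, and 12.6 and 11.7 in MC659. It was highest in MC010. The log2 fold change was 0.45 (SE 0.07, adjusted p = 2.72e-05), short of the fold threshold, and against MC654 alone it was 0.61, past both. Lpar6 lies inside Rb1 on the other strand and had 41.1 and 41.8 CPM in MC010 against 5.26 to 8.95 CPM elsewhere. The library kit was stranded, but whether the counting used strand is not given in the sources used here, so reads of Lpar6 in Rb1 cannot be told apart.

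Of the 8 genes other than Cdkn2a and Cdkn2b, 3 (37.5%) were called in MC010 against the mean of the other 3 lines, Cdkn2c higher and Cdk6 and Ccnd2 lower. MC010 differed widely from the other lines, since 33.5% of all genes tested were called, so this share is close to the background. By the adjusted p alone 7 of 8 passed, against 68.9% of all genes. Against each of the 3 other lines, and in the same direction, 3 of 8 were past both thresholds (the same Cdkn2c, Cdk6 and Ccnd2), where the share over all genes was 16.0%. Both MC010 libraries lay outside the range of the other 6 for 7 of 8 genes, all but Ccnd1, where the share over all genes was 49.7%. The median size of the log2 fold change was 0.52 for the 8 genes and 0.41 for all genes. The members were chosen with earlier results of these data known, so the shares describe them and are no independent test.

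**Figure D3:**
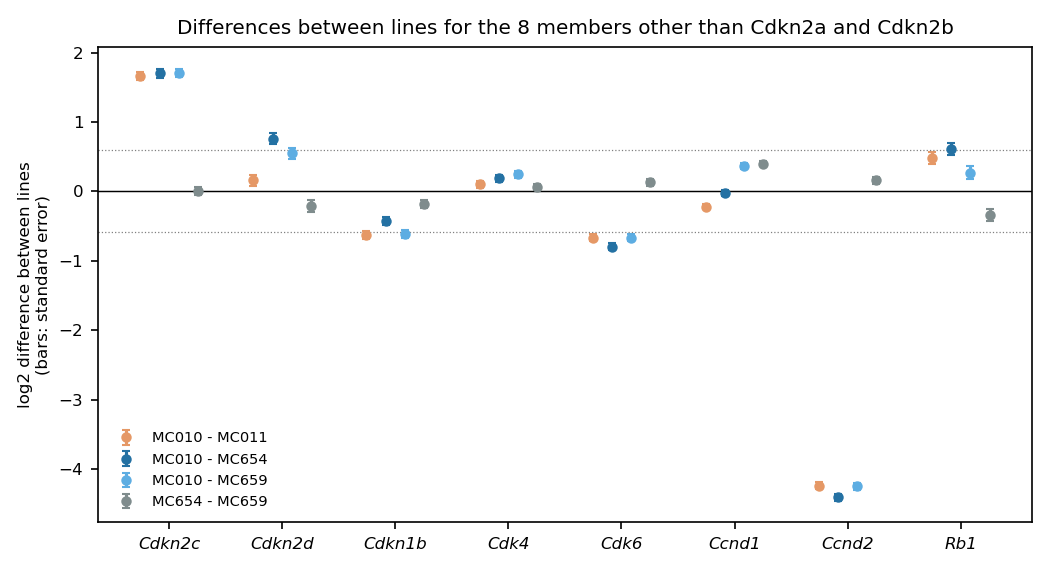
Log2 differences between single lines, with standard errors, for the 8 genes other than Cdkn2a and Cdkn2b, and the fold threshold of 0.59 as dotted lines. Cdkn2c (1.66 to 1.71), Cdk6 (-0.67 to -0.80) and Ccnd2 (-4.24 to -4.41) differ in MC010 by nearly the same amount from each of the 3 other lines. The grey points, MC654 minus MC659, run from -0.34 (Rb1) to 0.40 (Ccnd1).

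Treating each line as 1 sample, with its libraries added together, left 1 line against 3. In that test 0 of the 8 genes and 0 genes in all were called (edgeR), with 4 of the 8 at an unadjusted p under 0.05. The log2 fold changes were 1.70 for Cdkn2c (adjusted p = 0.126), -0.71 for Cdk6 (adjusted p = 0.199) and -4.30 for Ccnd2 (adjusted p = 0.101). The differences therefore exceed the spread between libraries, and over lines they did not pass the threshold.

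The 2 lines labelled IRF8 KO differed in this pathway. In MC010 against MC011, 4 of the 8 genes were called, Cdkn2c higher and Cdkn1b, Cdk6 and Ccnd2 lower, against 31.6% of all genes. By the adjusted p alone 6 of 8 passed, against 63.0%. Between the labels IRF8 KO and WT, with 4 libraries each, 0 of the 8 genes were called by edgeR, against 22.5% of all genes. At an unadjusted p under 0.05 there were 3, DESeq2 called 1 (Cdkn2c) and limma-voom, which took the line as a random effect, 0. By the adjusted p alone 1 of 8 passed, against 37.5% of all genes. It was Cdkn2d, with a log2 fold change of 0.58 (SE 0.10, adjusted p = 0.00298), just short of the fold threshold. That test counts the libraries of a line as separate samples. With each line as 1 sample, 0 genes in all and 0 of the 8 were called (edgeR), 1 of the 8 had an unadjusted p under 0.05, and Cdkn2d had an adjusted p of 0.187. With MC011 left out 4 of 8 were called. With single libraries left out the count was at most 2, reached without the second library of MC011, and it was 1 without the first library of MC011 or either library of MC659.

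Without MC010 the differences in the pathway were smaller. In MC011 against the mean of the WT lines, 0 of the 10 genes were called by edgeR and 0 by DESeq2, against 30.7% of all genes, and 5 had an unadjusted p under 0.05. By the adjusted p alone 3 of 10 passed, against 65.3% of all genes, Cdkn2d (log2 fold change 0.50), Ccnd1 (0.39) and Cdk4 (0.11). Without the second library of MC011, Cdkn2d reached 0.60 and was called. Cdkn2a (-0.11, SE 0.08, adjusted p = 0.246) and Cdkn2b (-0.02, SE 0.05, adjusted p = 0.743) did not pass. The median size of the log2 fold change was 0.10 for the 10 genes and 0.38 for all genes.

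The WT lines, compared with each other, also gave 0 calls among the 10 genes by edgeR and 0 by DESeq2, against 4.95% of all genes, with 7 at an unadjusted p under 0.05. By the adjusted p alone 4 of 10 passed, against 14.5% of all genes. Ccnd1 (log2 difference of MC654 from MC659 0.40) and Ccnd2 (0.16) were higher in MC654, and Rb1 (-0.34) and Cdkn1b (-0.18) were higher in MC659. These comparisons share libraries with each other, so their values are not independent.

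Within 1 Mb of Cdkn2a, 11 other genes could be tested. Of these, 6 were higher and 3 lower in MC010 past both thresholds, while Focad (-0.52) and Klhl9 (-0.18) were not called. The lower genes were Gm12606, Gm12609 and Gm12610, noncoding genes. Together with Cdkn2a and Cdkn2b they formed a run of 5 genes with lower values in MC010 and no other gene that passed the filter inside it, from 89235699 to 89463487 on chromosome 4 of mm10. As 33.5% of all genes were called in this comparison, a call alone does not set a neighbor apart.

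At the left end of the run, Gm12606 had 1.71 and 1.88 CPM in MC010 and 7.61 to 16 CPM elsewhere (log2 fold change -2.75, SE 0.10, adjusted p = 2.28e-12), with MC011 (7.61 and 8.25 CPM) below the WT lines. Gm12609 had 0 and 0 counts in MC010 against 59 to 110 in the other libraries, at least 27.3-fold lower with a floor of 3 counts per library. Gm12610 had 8 and 2 counts against 96 to 181. The last pair lie beyond Cdkn2b, at the right end.

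Mtap, the metabolic gene next to the run (chr4:89137122-89181081), had 1016 and 1057 CPM in MC010, 270 and 283 in MC011, 264 and 276 in MC654, and 257 and 263 in MC659. MTAP salvages methylthioadenosine and is often lost with CDKN2A in human tumors. Here it was higher in MC010, by a log2 fold change of 1.95 (SE 0.03, adjusted p = 1.42e-16). Farther out, Wincr1 had a log2 fold change of 1.70, Gm12602 of 1.17 and Mir31, counted as a gene, of 1.11. Wincr1 was also higher in MC011 (24.3 and 27.4 CPM) than in the WT lines (8.79 to 14.2 CPM). So was Gm12602 (7.48 and 6.86 CPM in MC011, 3.24 to 3.67 CPM in the WT lines), and it was not called in MC010 against MC011. Hacd4 had 18.6 and 20.9 CPM in MC010 and 1.41 as its log2 fold change, but MC659 was close at 17 and 14.8 CPM. On the other side, Dmrta1 had at most 52 counts in any library (log2 fold change 1.07, SE 0.39, adjusted p = 0.0242), and MC010 (0.324 and 0.707 CPM) overlapped with MC011 (0.498 and 0.544 CPM).

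**Figure D4:**
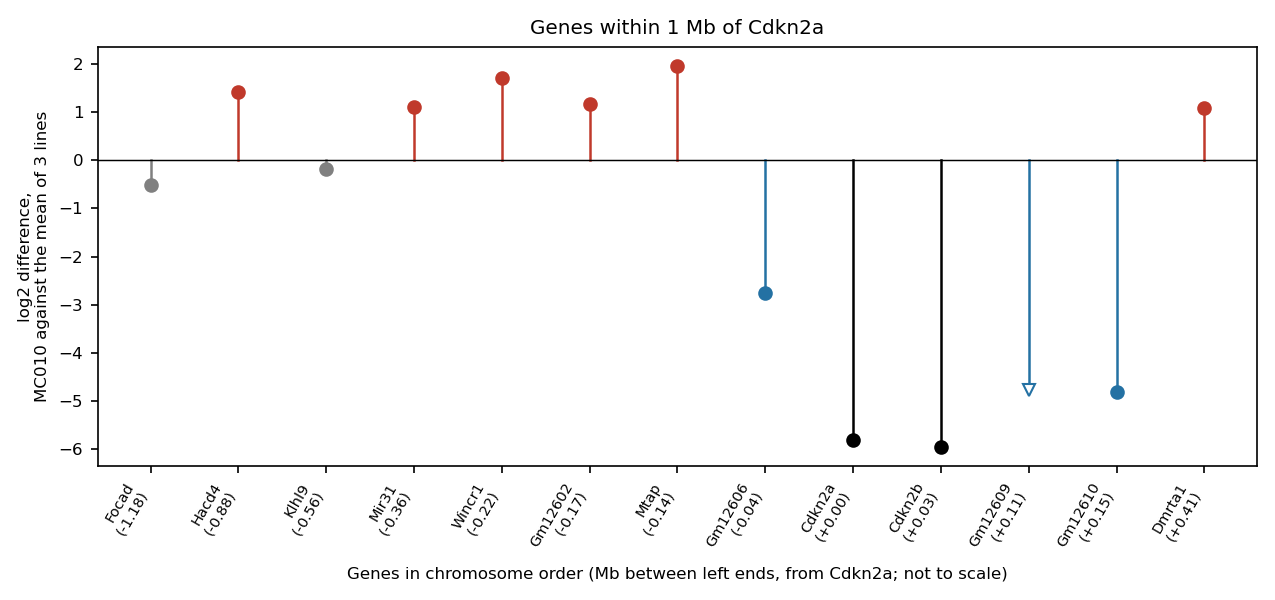
Log2 difference of MC010 from the mean of the other 3 lines for the 13 genes within 1 Mb that passed the filter of Cdkn2a, in chromosome order, with the distance between left ends in Mb under each name. Red is higher and blue lower past both thresholds, grey is not called, black marks Cdkn2a and Cdkn2b, which chose the set and carry no test, and the open triangle is the bound for Gm12609, which had 0 counts in MC010. The 3 blue genes lie on either side of the black ones, and Mtap at 1.95 stands next to them.

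Over the 8 libraries, the genes whose log2 CPM followed that of Cdkn2a most closely among 10688 genes were Zcchc3 (r = 0.999), Klc1 (0.999), Tubb2b (0.999), Cdkn2b (0.999) and Ccnd2 (0.998). At the other end, Mtap (r = -0.999) was second lowest and Cdkn2c (-0.996) 16th lowest. Cdk6 had an r of 0.984 and Cdkn1b of 0.921. These coefficients describe little more than MC010 against the rest, as the libraries form those 2 clusters, and 87 genes had an r above 0.99.

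The other genes of the pathway were read from lists. Among 9 other G1 cyclins and kinases, 0 were called higher and 2 lower in MC010 (18.1% of all genes were called higher and 15.3% lower). They were Ccnh (20.7 and 22.3 CPM against 36 to 46.4 CPM, log2 fold change -0.97) and Mnat1 (23 and 21.2 CPM against 37.4 to 45.6 CPM, -0.91). Both encode partners of CDK7 in the complex that activates other cyclin-dependent kinases. The third part, Cdk7, had -0.21. Ccne1, the cyclin that acts after cyclin D, had 38.6 and 40.4 CPM in MC010, close to MC011 (38 and 37.6 CPM), and its log2 fold change of -0.38 was short of the threshold. It became -0.61, past both thresholds, with MC011 left out.

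Of the 2 further CIP/KIP inhibitors, Cdkn1a, the gene of p21 and a target of p53, was called higher, as were 18.1% of all genes. It had 31.2 and 26.2 CPM in MC010, 7.08 and 7.46 in MC011, 9.73 and 9.63 in MC654, and 8.73 and 8.24 in MC659. The MC010 libraries lay above all others (log2 fold change 1.77, SE 0.07, adjusted p = 3.08e-12). Cdkn1c had 1.66 to 10 CPM in the other lines, with MC010 in between at 4.43 and 3.54 CPM (log2 fold change -0.04, adjusted p = 0.817).

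Downstream, 3 of 12 pocket protein and E2F genes (25%) were called higher in MC010, against 18.1% of all genes, and 0 lower, against 15.3%. E2f2 had 18.9 and 18.6 CPM in MC010 against 5.13 to 8 CPM elsewhere (log2 fold change 1.58, SE 0.07, adjusted p = 2.22e-11). E2f8 had 73.7 and 70.7 CPM against 35 to 61.8 CPM (0.66) and E2f1 111 and 106 CPM against 60.3 to 82.1 CPM (0.59). The call of E2f1 lay at the threshold and was lost without the first library of MC010 (0.56), the second of MC011 (0.58), the second of MC654 (0.58) or the first of MC659 (0.58), and with upper-quartile scaling (0.58). With MC011 left out, E2f1 was at 0.48 and E2f8 at 0.47. Rbl1, the gene of the RB relative p107, had 0.48, and Rbl2 -0.03.

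Among 20 E2F target genes for DNA synthesis, 3 (15%) were called higher, against 18.1% of all genes, and 0 lower. Pcna, the sliding clamp, had 470 and 456 CPM in MC010 against 256 to 332 CPM (log2 fold change 0.72), Uhrf1 510 and 483 against 274 to 323 CPM (0.75), and Cdc45 98.9 and 102 against 51.4 to 75.5 CPM (0.62, and 0.47 with MC011 left out). The shifts of this list were small and mostly upward. By the adjusted p alone 17 of 20 were higher, against 35.3% of all genes, and the median log2 fold change was 0.35 against 0.01 for all genes. Rrm1 (-0.09, adjusted p = 0.0329) was lower. Against MC011 alone 7 of 20 (35%) were called, all higher in MC010, beside 31.6% of all genes. In MC011 against the WT lines 2 of 20 were called, Rrm2 (0.95) and Cdc6 (-0.87), beside 30.7%. By the adjusted p alone 11 of 20 were lower and 2 higher in MC011 than in the WT lines, and 65.3% of all genes passed in either direction. MC011 is part of the mean that MC010 was set against, so its lower values add to the upward shift.

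For the turnover of D cyclins and p27, 1 of 9 genes was called higher (18.1% of all genes were) and 0 lower (15.3% were). This was Fbxo4, an F-box gene linked to cyclin D1 breakdown, with 0.66, which was 0.53 once MC654 was dropped and 0.57 once MC659 was. Fbxo4 was also called higher in MC011 against the WT lines (0.60). Skp2, which marks p27 for breakdown, had -0.01 (adjusted p = 0.853). Of 17 regulators of the Cdkn2a locus, 16 were tested. Among them 1 was called higher, against 18.1% of all genes, and 1 lower, against 15.3%. Cbx7, a Polycomb gene known to repress the locus, had 0.708 and 0.803 CPM in MC010, 9.95 and 9.86 in MC011, 4.33 and 3.66 in MC654, and 7.18 and 6.66 in MC659 (log2 fold change -3.11, SE 0.14, adjusted p = 1.62e-11). Cbx7 also differed between the WT lines (log2 difference of MC654 from MC659 -0.79, past both thresholds). Its part in the Cdkn2a level of MC010 was not tested. Id1, an inhibitor of the ETS factors that activate the locus, had 85.3 and 76.6 CPM in MC010, 59.3 and 47.6 in MC011, and 26.5 to 39.8 in the WT lines (1.11). It was also called higher in MC011 against the WT lines. Bmi1 had 0.09, Ezh2 0.42 and Eed -0.53, none past both thresholds.

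On the ARF side, 1 of 4 genes was called higher (18.1% of all genes were) and 1 lower (15.3% were). Trp53 had 352 and 337 CPM in MC010, 169 and 161 in MC011, 31.9 and 30.7 in MC654, and 30.5 and 29.1 in MC659 (log2 fold change 2.68, SE 0.04, adjusted p = 1.52e-17). It was also raised in MC011, where Cdkn2a did not pass the thresholds against the WT lines (-0.11). Mdm4, an inhibitor of p53, had 59.9 and 64.7 CPM in MC010, 88.8 and 91.1 in MC011, and 121 to 132 CPM in the WT lines (-0.85). Mdm2 had 0.28 and Npm1, whose product binds ARF, -0.22.

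**Figure D5:**
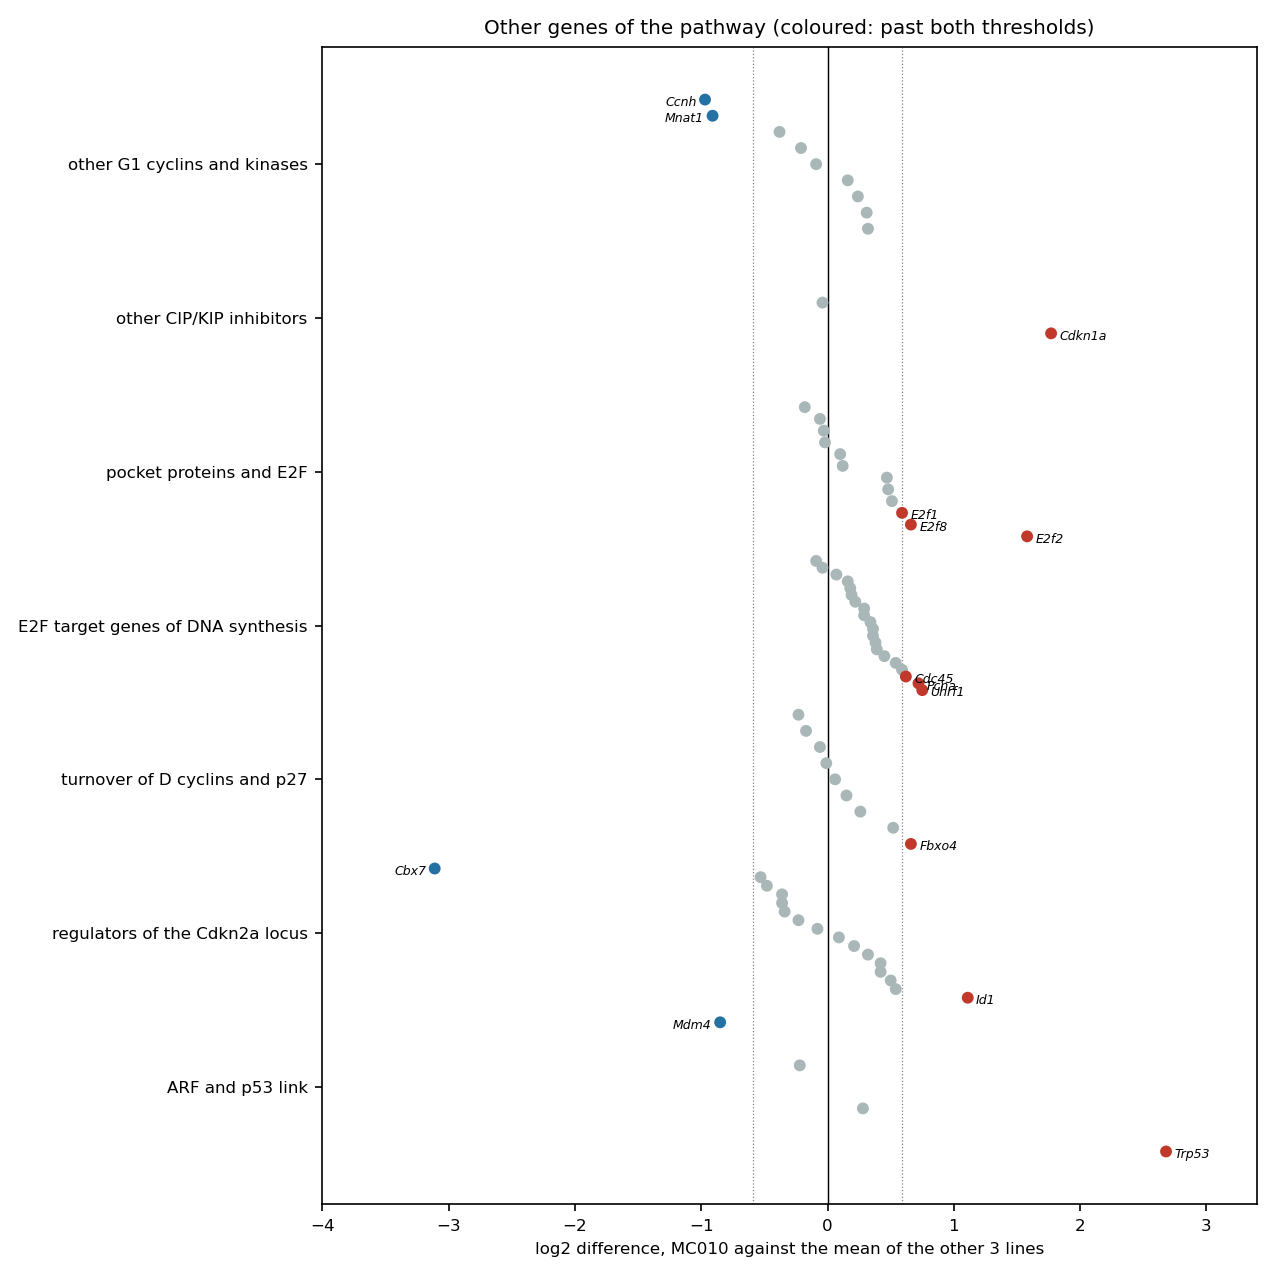
Log2 difference of MC010 from the mean of the other 3 lines for every tested gene of the 7 lists, with the fold threshold of 0.59 as dotted lines. Colored and named points are past both thresholds, red higher and blue lower. Most E2F target genes lie between 0 and 0.75, and Trp53 (2.68), Cdkn1a (1.77), E2f2 (1.58) and Cbx7 (-3.11) lie farthest out.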

How the data were processed

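RNA of 4 cell lines was sequenced in 8 libraries. The deposited values used here are raw counts of reads per gene, which the authors made with STAR and HTSeq on mm10 (GRCm38.p6). The submitters' processing notes name STAR 2.7.3a and HTSeq 0.11.2, other releases than the study's methods. The strand setting is not given in the sources used here. The authors' scaled values and their comparison columns (means, fold changes, errors, test statistics and p-values) were not used. All sample columns were mapped by name. Genes of chromosomes X and Y are not analysed here. Depth was 74063616 to 116206078 counts per library.

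Counts were scaled by TMM, filtered with filterByExpr and tested with edgeR 4.0.16 (quasi-likelihood, robust) under R 4.3.3 over 15153 genes. The comparisons between lines fitted 1 group per line, and that between labels 1 group per label. A call needed an adjusted p under 0.05 and a log2 fold change beyond 0.59. Alternatives were DESeq2 1.42.0, limma 3.58.1 (voom), upper-quartile scaling, no filter, no fold threshold, a replicate block, line sums, and lines or libraries left out. The code was tested on simulated data. CPM used the TMM library sizes, and exon lengths came from GENCODE vM21 (18742 genes matched).

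The genes named are the 10 members, the genes of the lists, the tested genes within 1 Mb of Cdkn2a, Irf8, marker genes, genes overlapping a member, and the 5 genes with the highest correlation with Cdkn2a (mean log2 CPM of at least 1). The members, lists and the motif were chosen with earlier results of these data known. Nothing says that the libraries of a line came from separate cultures, so their spread may be technical.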

Additional observations from a re-analysis of the deposited data

Results flagged for a closer look

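MC010 and MC011 carry the same label but differed in 4 of the 8 genes other than Cdkn2a and Cdkn2b, where 31.6% of all genes were called. This was a test of the difference itself (edgeR, 1 group per line). MC010 minus MC011 was 1.66 for Cdkn2c, -0.63 for Cdkn1b, -0.67 for Cdk6 and -4.24 for Ccnd2 on the log2 scale, and both libraries of MC010 lay outside the range of MC011 for each of them. Each line is 1 tumor, and the cause was not tested.

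Single libraries stood apart from the other 3 of their label in 2 of 20 groups of 4 examined, where chance gives about 1 in 20. They were Cdkn2a in the first library of MC654 (377 CPM) and Cdk4 in the first library of MC659 (523 CPM).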

How the results depend on the processing

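For MC010 against the other 3 lines, 3 of 8 genes were called, and 3 were called with DESeq2, upper-quartile scaling, no filter and the replicate block. The count was 7 with no fold threshold and 0 with the libraries of each line added together, and 3 to 4 with single libraries left out. Between the labels the count was 0, and it was 1 with DESeq2, 1 with no fold threshold, 4 with MC011 left out, 1 with MC659 left out, and 0 to 2 with single libraries left out. For MC011 against WT it was 3 with no fold threshold and 0 to 1 with single libraries left out, and between the WT lines 4 with no fold threshold. Directions turned for Ccnd1 (-0.13) and Cdkn1c (0.57) in MC010 with MC659 left out, for Cdkn1c with single libraries left out (-0.22 to 0.12, the highest without the second library of MC010), for Cdkn1b (0.09) and Rb1 (-0.07) between the labels with MC010 left out, and for Cdkn2a in MC011 with single libraries left out (-0.26 to 0.02, the highest without the second library of MC011). The cause was not tested. The replicate block rests on library numbers that share only a number, since correlations of same-numbered libraries lay between -0.03 and 0.06. It moved the calls over all genes from 5074 to 5072 for MC010 against the others and from 3404 to 3106 between the labels, and changed no call among the members. The study holds 1 line with low Cdkn2a RNA, so what belongs to that line and what goes with low Cdkn2a cannot be told apart.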
